A study of Rattus norvegicus with 2 samples.

Results

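The axoneme of motile cilia is the microtubule scaffold that beats in airway cilia and in sperm tails. Its genes were examined in RNA with a left ventricle label, from cocaine-treated and control SD rats. They were chosen by name alone, as every named gene whose symbol begins with Dnah, Dnai, Dnali, Dnaaf, Rsph, Tekt, Cfap or Drc followed by a digit, together with Foxj1, Ccdc39 and Ccdc40. The rule gave 55 of the 15037 named genes, each measured by 1 set of probes. The rats were male Sprague Dawley (SD) animals, 8 weeks old by the study's methods. The cocaine rats had received 20 mg/kg of cocaine a day for 14 days through the tail vein. Their tissue was taken 24 hours after the last dose. The control's label says that it had no stimulation, while in the methods the controls got saline injections. RNA of each condition was hybridized to 1 Clariom S array, a microarray that reads each transcript with a set of short probes. The study's methods do not say whether an array held RNA of 1 rat or of several. Since each condition has a single array, the differences below describe these 2 arrays, with no SD and no test.
The axoneme consists of outer doublet microtubules around a central pair. Dynein arms on the doublets are the motors, radial spokes and the nexin links control them, and tektins and other proteins line the inner wall of the doublets. The arms are put together in the cytoplasm by assembly factors before they enter the cilium. In the lung these genes are used by multiciliated cells of the airways, under the transcription factors FOXJ1 and RFX, and in the testis by developing sperm. Heart muscle cells carry no motile cilia. Several of the proteins named below exist in separate airway and sperm forms.

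The promoters of these genes often held the binding motif of the RFX factors, called the X-box, and the matching stretches are shown here because this feature was not used to choose the genes. RefSeq promoter windows of the GRCr8 assembly, 300 bases long from 250 before the transcript start to 50 after it, were found for 44 of the 55 genes. The motif was searched on both strands as GTNNCC, a gap of 0 to 3 bases and NGNAAC, where N is any base. It occurred in 12 of the 44 promoters (27.3%), against 5% of all 27457 promoters and 5.21% of the 12435 promoters of named genes. These patterns and the window were chosen after the arrays and first matches had been seen. In the 250 bases before the start alone it occurred in 10 of 44 (22.7%), against 4.01% of all promoters. The 14 stretches are printed below, 5′ to 3′ along the gene, with the match in capitals and up to 6 flanking bases on each side in lower case. The first of them belong to Tekt2 and Dnai2, which share an identical core.
Tekt2, chr5:143907742-143907766, minus strand: ggggcgGTTGCTAGGCAACcagagc
Dnai2, chr10:100258954-100258978, plus strand: gccaggGTTGCTAGGCAACcggtaa
Dnai1, chr5:61525974-61525998, plus strand: ctgtctGTTGCTGGGTAACcgcgtc
Dnaaf2, chr6:93406392-93406417, minus strand: ctgggtGTTACCATGGCAACaaagca
Cfap298, chr11:43677454-43677480, minus strand: ttgactGTTGCCCTTGGCAACagtcac
Cfap298, chr11:43677594-43677619, minus strand: gtttcgGTTGCCCGGGCAACagctac
Dnaaf6, chrX:108512947-108512972, plus strand: aaagttGTTACCCAGGCAACagagcg
Cfap20dc, chr15:18661378-18661403, plus strand: ccctcaGTTGCCTGGGCAACggctca
Cfap45, chr13:87521812-87521837, plus strand: gtcttgGTTGCTGTGGTAACgcgtca
Tekt4, chr10:14992265-14992290, plus strand: tacaatGTTCCTGAGGCAACcaggag
Dnaaf5, chr12:20606491-20606516, minus strand: gcgccgGTTCCCTTGGAGACaagcaa
Cfap95, chr1:230669475-230669500, minus strand: tcctagGTTTCTTAGGAGACaagaga
Dnaaf6, chrX:108512861-108512886, plus strand: gggattGTTTCAAAGGAGACtctttt
Drc12, chr8:53474509-53474532, plus strand: cctgcaGTCTCCAGAAACccaaca
Under the narrower spelling GTTNCC, a gap of 0 to 3 bases and GGNAAC, 4 of the 44 genes kept a match (9.09%), against 0.841% of all promoters. By the gene lists described below, it was in 1 of 24 promoters of airway cilia genes (4.17%) and 2 of 7 of broadly expressed ones (28.6%). The wider spelling was in 7 of those 24 (29.2%) and 3 of those 7 (42.9%). The arm GTTGCC alone, which overlaps the X-box, was present in 13 of 44 (29.5%) against 12.2%. The forkhead motif TGTTTAC, a letter string bound by factors of the FOXJ1 family, was present in 3 of 44 (6.82%) against 3.76%, and TGTTTG in 8 of 44 (18.2%) against 17.7%. An E2F motif, GGCGGGAA, was the last of the 6 patterns searched and was present in 1 of 44 (2.27%) against 2.02%. A match to letters is a description and does not show that a factor binds there.
The upstream 250 bases of Tekt2 and Dnai1 are given whole, because these genes encode a doublet wall protein and a dynein arm subunit with a single match each, in capitals.
Tekt2 promoter, chr5:143907725-143907974, minus strand: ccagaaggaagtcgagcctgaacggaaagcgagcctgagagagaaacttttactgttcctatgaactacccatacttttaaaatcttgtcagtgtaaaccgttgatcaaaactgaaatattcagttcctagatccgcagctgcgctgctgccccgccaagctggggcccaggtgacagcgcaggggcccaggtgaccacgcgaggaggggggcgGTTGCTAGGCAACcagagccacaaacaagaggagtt
Dnai1 promoter, chr5:61525829-61526078, plus strand: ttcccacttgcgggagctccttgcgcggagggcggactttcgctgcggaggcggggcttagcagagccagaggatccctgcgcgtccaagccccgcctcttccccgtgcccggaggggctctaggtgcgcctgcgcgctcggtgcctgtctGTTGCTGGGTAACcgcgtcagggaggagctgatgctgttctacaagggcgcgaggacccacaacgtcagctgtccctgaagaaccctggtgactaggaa
Among the axoneme genes, an X-box did not go with a common direction on the arrays. Ratios were not split by X-box for genes of other lists. Of the 12 genes with a match, 10 lay above the background limit described below on both arrays, and 6 were higher and 6 lower on the cocaine array, with a median log2 ratio of 0.03. The 32 genes with a promoter window and no match had 26 above the limit, 15 higher and 17 lower, and a median of -0.05. The other 11 genes had no promoter in the table used here, Foxj1 among them.
The share differed among ciliary genes outside the name rule. A list of other motile cilium genes, such as those of the central pair and of arm docking, had the motif in 17 of 26 promoters (65.4%), and genes of intraflagellar transport, the carriage of cargo along any cilium, in 3 of 17 (17.6%). Of 9 airway secretory cell markers and 15 cardiomyocyte markers 0 had it, and of 18 male germ cell markers 1 did.

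**Figure D1:**
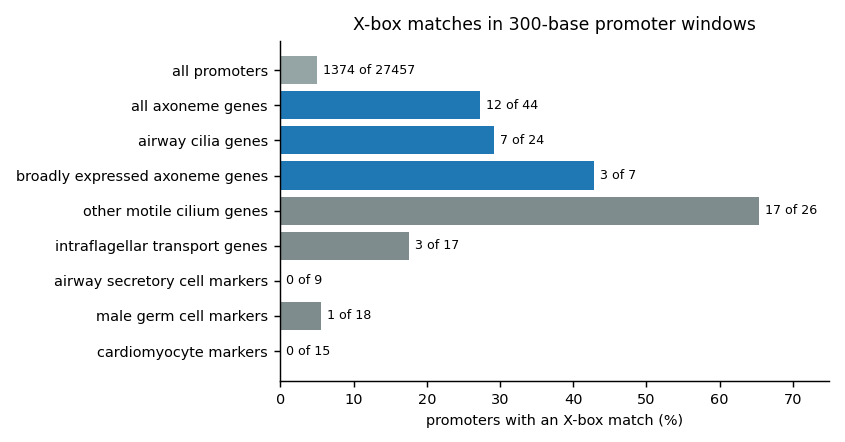
Share of promoter windows with an X-box match, in percent (horizontal axis), for each gene list (vertical axis); the numbers beside the bars are promoters with a match of all promoters found. The axoneme genes as a whole stand at 27.3% and other motile cilium genes at 65.4%, against 5% of all promoters.

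Most axoneme genes were measurable on both arrays. The deposited intensities carry no detection flags, so the background limit used here is percentile 95 of the intensities of 1155 receptor genes for odours and pheromones, which belong to sensory neurons of the nose. The limit was 64.1 for the cocaine array and 71.5 for the control. Of the 55 genes, 42 lay above it on both arrays (76.4%), against 64.9% of all named genes. A further 2, Rsph1 and Cfap52, lay above it on the cocaine array alone, and 11 lay under it on both. Intensity also depends on how well a gene's own probes bind, so it does not rank genes against each other.
The genes known from airway cilia were mostly above the limit, and the 3 measured testis-restricted genes were under it. Of 31 measured genes of a list of airway cilia proteins, 25 lay above the limit on both arrays (80.6%), against 64.9% of all named genes. Of the 12 axoneme genes in none of the airway, testis-restricted and broadly expressed lists, 8 lay above it on both (66.7%). Of 7 genes listed as testis-restricted from knowledge of mouse and human, 3 had a named probe set, and 0 of these lay above the limit on either array. Tekt5, the sperm-tail tektin, stood at 45.4 (cocaine) and 26.8 (control). Rsph6a, the sperm form of a spoke head protein, stood at 22.8 and 25.9, and Cfap97d1, which mouse sperm need for motility, at 15.8 and 13.2. All values of these 3 genes lay under the limits. Dnah8, Dnah17, Cfap58 and Cfap65, the rest of that list, had no probe set under their names. A wider list of male germ cell markers had 4 of 20 above the limit on both arrays, with summed intensities of 1838 (cocaine) and 2079 (control). Those 4 included the protamine genes Prm1, at 147.3 and 131.8, and Prm2, at 580.5 and 669.9, which package sperm DNA.
All 9 genes listed as broadly expressed, which many cell types use outside motile cilia, lay above the limit on both arrays. Cfap36, a partner of a small GTPase, stood at 3586 and 3223, and Cfap298, an arm assembly protein, at 1839 and 1733.
The label of the tissue was checked against marker lists. Of 19 cardiomyocyte markers, 8 lay above the limit on both arrays (14 above it for cocaine and 9 for the control), with summed intensities of 18774 (cocaine) and 11968 (control). Their median log2 ratio was 1.05, or 0.56 with values held at the limit and 1.65 over the 8 above it on both arrays. The ventricular myosin light chain gene Myl2 stood at 6344 and 7778 and the cardiac actin gene Actc1 at 5276 and 1842, whereas the slow cardiac myosin gene Myh7 lay under the limit on both arrays, at 31.9 and 29.0. All 7 alveolar type II cell markers lay above it, with sums of 2307520 and 2338010, as did all 10 airway secretory cell markers, with sums of 601201 and 600524. Markers of lung epithelium were thus above background on both arrays labelled left ventricle, and 4 of the 19 cardiomyocyte markers, Myh7 among them, were under it on both. Among the intensities of all named genes, the alveolar type II markers had a median percentile of 99.8 on both arrays. The median percentile was 66.6 (cocaine) and 58.8 (control) for the airway secretory markers, and 41.2 and 31.0 for the cardiomyocyte markers. The alveolar sums include Sftpc, which had the same value on both arrays, the highest of each. The part that lung tissue plays in the levels of the axoneme genes was not tested. In bulk RNA, fewer ciliated cells and less RNA per ciliated cell cannot be told apart.

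**Figure D2:**
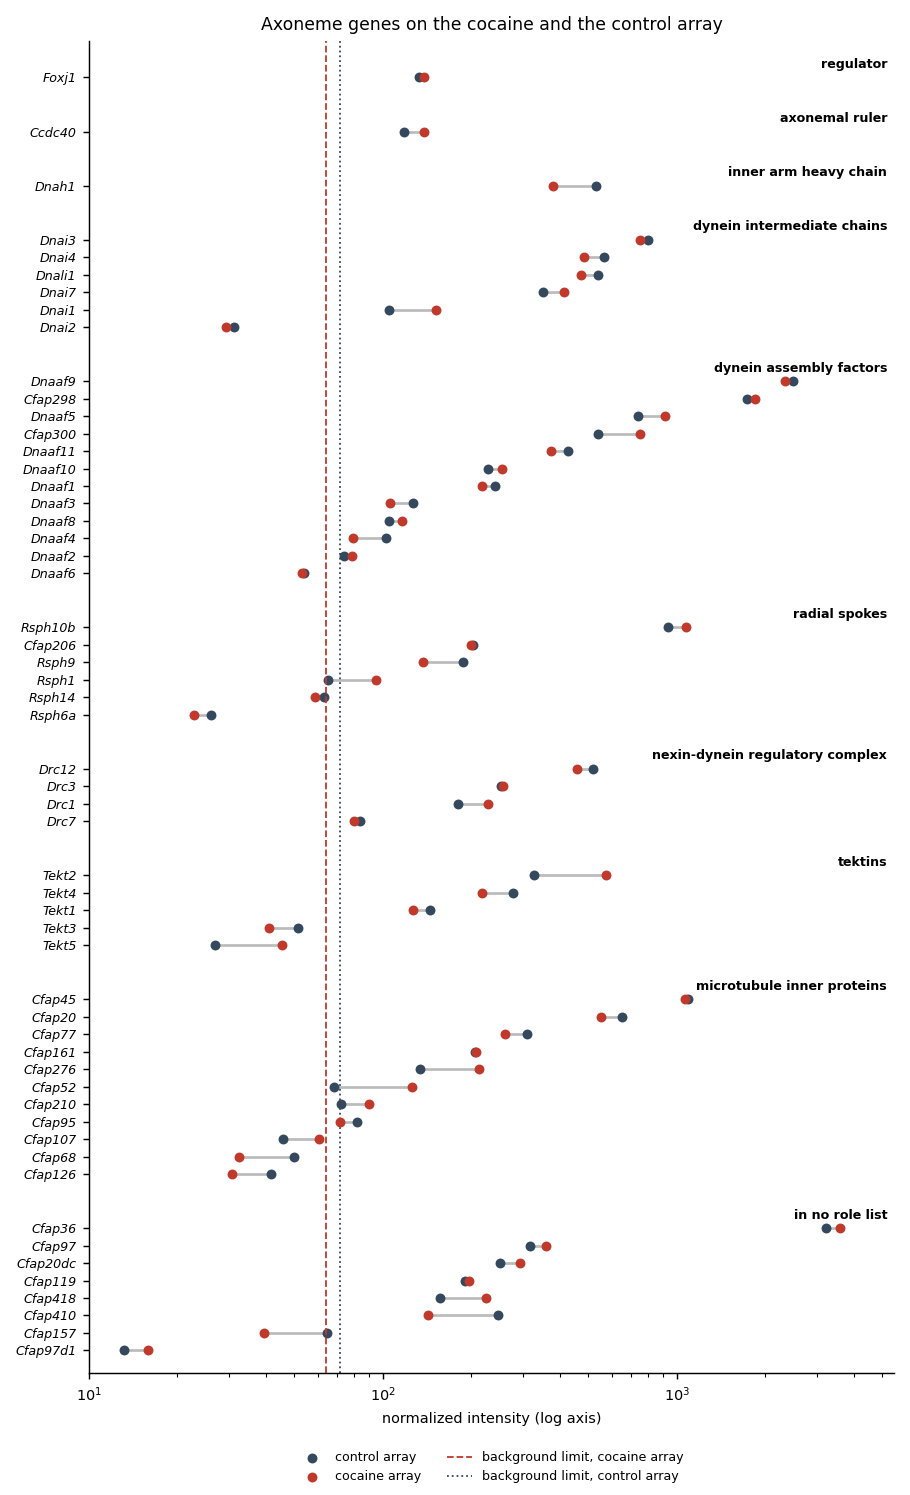
Normalized intensity (horizontal log axis) of the 55 axoneme genes on the cocaine array (red points) and the control array (dark points), ordered by role in the cilium; the vertical lines mark the background limits of 64.1 and 71.5. Grey lines join the values of a gene, and the 3 testis-restricted genes Tekt5, Rsph6a and Cfap97d1 lie left of both lines.

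As a group the axoneme genes were split evenly between the arrays. Their log2 ratio, the log2 intensity on the cocaine array minus that on the control array, had a median of -0.02, against 0.02 over all named genes, and from -0.04 to -0.01 under the other scalings of the arrays. Of the 55, 27 were higher on the cocaine array and 28 lower (49.1% higher), against 52.4% of all named genes that were higher. The quartiles of the distribution, from -0.19 to 0.24, were close to those of all genes, from -0.20 to 0.24. Of the 55 genes, 0 differed 2-fold, against 1.3% of all genes, and 14 differed by less than 0.1.
At least 1.5-fold differences were found in 7 of the 55 genes (12.7%), against 9.58% of all named genes. Of these, 4 were higher on the cocaine array, against a background of 4.63%, and 3 lower, against 4.95%. Among the 42 genes above the limit on both arrays only Tekt2, Cfap276 and Cfap410 reached 1.5-fold (7.14%), against a background share of 7.04%. The count of such genes is therefore near the background and is no result about the axoneme as a group.

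**Figure D3:**
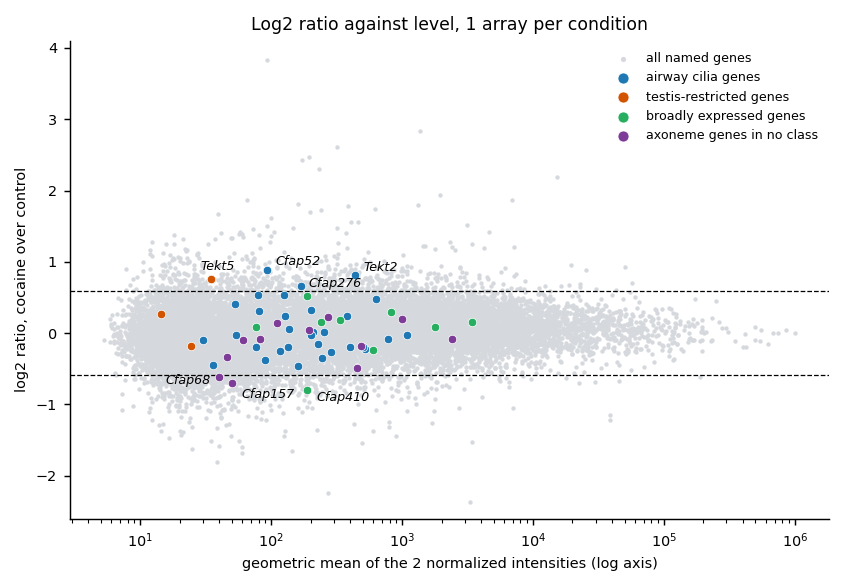
Log2 ratio of cocaine over control (vertical axis) against the geometric mean of the intensities of the 2 arrays (horizontal log axis) for all named genes (grey) and the axoneme genes, coloured by class; dashed lines mark 1.5-fold. The axoneme genes lie inside the cloud of all genes, and the 7 named ones lie beyond the dashed lines.

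Foxj1, the forkhead factor that turns on motile cilium genes, stood at 138.5 (cocaine) and 132.8 (control). Ccdc40, which with Ccdc39 forms the ruler that sets the spacing of arms and spokes along the doublet, stood at 138.5 and 117.5. Both lay above the limit on both arrays and differed little between them, with log2 ratios of 0.06 and 0.24. Ccdc39 itself had no probe set under its name.
Of 13 axonemal heavy chain genes in RefSeq only Dnah1 had a named probe set, so the outer arm heavy chains of the airway, Dnah5, Dnah9 and Dnah11, were not analysed here. Dnah1, an inner arm heavy chain that sperm tails need in people, stood at 380.1 (cocaine) and 531.1 (control), 1.40-fold lower on the cocaine array. The 6 intermediate and light intermediate chains of the name rule were measured. Dnai1, an intermediate chain of the outer arm whose loss causes primary ciliary dyskinesia in people, stood at 151.6 and 104.7, 1.45-fold higher on the cocaine array. Its partner in the same arm, Dnai2, lay under the limit on both arrays, at 29.3 and 31.2, so that the pair cannot be compared. Among the chains of the inner arms, Dnai3 stood at 750.0 and 796.7. Dnai4 stood at 483.7 and 566.4, and Dnali1, the light intermediate chain, at 471.8 and 539.2. These 3 were slightly lower on the cocaine array. Dnai7 went the other way, at 413.8 and 351.0. Over the 6 intermediate and light intermediate chains the median log2 ratio was -0.09, with 2 higher and 4 lower.
Assembly factors help fold and join the dynein arms in the cytoplasm. The 12 measured under the name rule were split evenly, 6 higher and 6 lower, with a median of 0.03. Dnaaf9, of this group by its name, stood at 2340 (cocaine) and 2477 (control). Cfap300, whose loss leaves human airway cilia without arms, stood at 751.3 and 538.7, 1.39-fold higher on the cocaine array and the largest difference of the group. Dnaaf5, a broadly expressed scaffold protein, stood at 909.0 and 737.2. In the other direction Dnaaf4, at 79.1 and 102.2, was 1.29-fold lower, and Dnaaf3, at 105.9 and 126.4, 1.19-fold lower. None of these differences reached 1.5-fold. Dnaaf1 stood at 217.0 and 241.5, Dnaaf11 at 373.3 and 425.4, Dnaaf10 at 253.8 and 227.8, and Dnaaf8 at 115.8 and 105.1. Dnaaf2, a partner of the heat shock chaperones, was barely above the limit, at 78.2 and 73.8. Dnaaf6, X-linked in the rat as in people, was the only 1 of these 12 under it on both arrays, at 53.0 and 53.8.
Among 6 spoke genes of the name rule, 3 lay above the limit on both arrays and 2, Rsph6a and Rsph14, under it on both. Rsph10b stood at 1076 (cocaine) and 934.9 (control), and Cfap206, a protein at the spoke base, at 198.9 and 202.0. Rsph9 and Rsph1, both proteins of the spoke head whose loss impairs human airway cilia, differed in opposite directions. Rsph9 stood at 136.5 and 188.0, 1.38-fold lower on the cocaine array. Rsph1 stood at 94.9 and 65.2, 1.45-fold higher, but its control value was under the limit, and with both values held at or above the higher limit it was at least 1.33-fold higher. Rsph14 stood at 58.9 and 62.9.
The nexin links tie neighbouring doublets together. All 4 of their genes measured under the name rule lay above the limit on both arrays. Drc1, whose loss causes ciliary dyskinesia in people, stood at 227.0 (cocaine) and 180.6 (control). Drc3 stood at 255.4 and 253.1, and Drc12 at 457.5 and 520.3. Drc7, which mouse sperm tails need, stood at 79.5 and 83.8. Their log2 ratios ran from -0.19 to 0.33.

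The tektins, coiled-coil filament proteins inside the doublet wall, did not share a direction. Tekt2 stood at 576.5 (cocaine) and 326.0 (control). This was 1.77-fold higher and a log2 ratio of 0.82, at percentile 98.5 of the ratios of all named genes. Tekt1, at 126.6 and 144.2, and Tekt4, at 218.1 and 276.6, were slightly lower instead, by 1.14-fold and 1.27-fold. All 3 are known from airway cilia as well as from sperm, and all lay above the limit on both arrays. Tekt3, at 40.9 and 51.4, lay under it on both, as did the sperm tektin Tekt5. Tekt5 was nominally 1.69-fold higher on the cocaine array, but with both of its values under the limit no fold can be read.
Cfap52, a protein of the inner doublet wall whose loss disturbs left-right asymmetry in people, stood at 125.5 (cocaine) and 68.2 (control), nominally 1.84-fold higher. The control value lay just under the limit of 71.5, and with values held at that limit Cfap52 was at least 1.75-fold higher, which does not order it against Tekt2. Cfap276, another inner wall protein, was 1.59-fold higher, at 212.8 and 133.9, with both values above the limit. Cfap45, which lines the same doublet wall as Cfap52, was alike on both arrays, at 1070 and 1094. Cfap161 was also alike, at 207.5 and 206.0. Cfap77, at 259.3 and 310.2, and Cfap20, a broadly expressed protein of the inner junction, at 550.1 and 648.6, were slightly lower on the cocaine array. Cfap210 stood at 89.6 and 72.2, and Cfap95 at 71.4 and 81.4, both close to the limit. Apart from tektins, 3 inner wall genes of the name rule lay under the limit on both arrays. They were Cfap107, at 60.4 and 45.6, Cfap126, at 30.6 and 41.8, and Cfap68, at 32.4 and 49.7. Cfap68 was nominally 1.53-fold lower there. The 11 inner wall genes with Cfap names comprised 5 that were higher and 6 that were lower, and their median log2 ratio was -0.03. Inner wall genes with other names, such as Enkur below, are not in this count.
Of 8 genes outside these roles, Cfap410 had the largest difference. Cfap410, a broadly expressed protein linked to retinal disease in people, stood at 142.2 (cocaine) and 247.3 (control), 1.74-fold lower. Cfap418, also linked to retinal disease and broadly expressed, went the other way, at 224.7 and 156.5, 1.44-fold higher. Cfap97 stood at 358.7 and 316.0, Cfap20dc at 292.3 and 250.1, and Cfap119 at 196.9 and 190.1. Cfap157, a protein of the sperm tail base in mouse, was nominally 1.63-fold lower, at 39.5 and 64.3, both values under their limits.

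The list of motile cilium genes outside the name rule was mostly higher on the cocaine array. It held 62 symbols and was chosen with earlier results of these data known. Its 31 measured genes had a median log2 ratio of 0.21, against 0.02 over all named genes. Of the 31, 24 were higher (77.4%), against 52.4% of all named genes, and 7 were lower. The 31 airway cilia genes of the axoneme had 14 higher, 17 lower and a median of -0.02. Under the other scalings of the arrays the median of the first list ran from 0.18 to 0.20, with 24 higher after centring and after quantile normalization and 25 after loess. Of the listed genes 24 lay above the limit on both arrays (77.4%), against 64.9% of all named genes. Among these 24, 20 were higher, against 5609 of the 9763 named genes above the limit on both arrays. Spef2, a central pair protein, stood at 499.7 (cocaine) and 268.5 (control), 1.86-fold higher. Enkur, an inner wall protein, was 1.79-fold higher, at 519.6 and 289.7. Both were picked for having the largest ratios of the list. Tppp3, a tubulin-binding protein abundant in ciliated airway cells, stood at 23955 and 19067. Deup1, which builds the many basal bodies of multiciliated cells, was 1.46-fold lower, at 122.0 and 178.5.
Both lists belong to the same cilium, and the difference between them was not tested, as each condition has a single array. They are separated by gene name and not by part of the cilium, so both hold inner wall proteins. Beside them, the airway secretory cell markers had a median of 0.12, with 6 higher and 4 lower. Bpifa1, a secreted protein of the airway lining, stood at 3614 and 509.0. Scgb1a1, the club cell protein, stood at 482560 and 513553. Of the 10 secretory markers, 3 were at least 1.5-fold different (30%), against 9.58% of all named genes. All 3 were higher on the cocaine array: Bpifa1, Scgb3a1, at 69224 and 36293, and Agr2, at 442.0 and 224.7. The lowest log2 ratio among the 4 lower ones was -0.19. The secretory genes therefore did not all share one direction, and their part in the ratios of the ciliary genes was not tested.

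**Figure D4:**
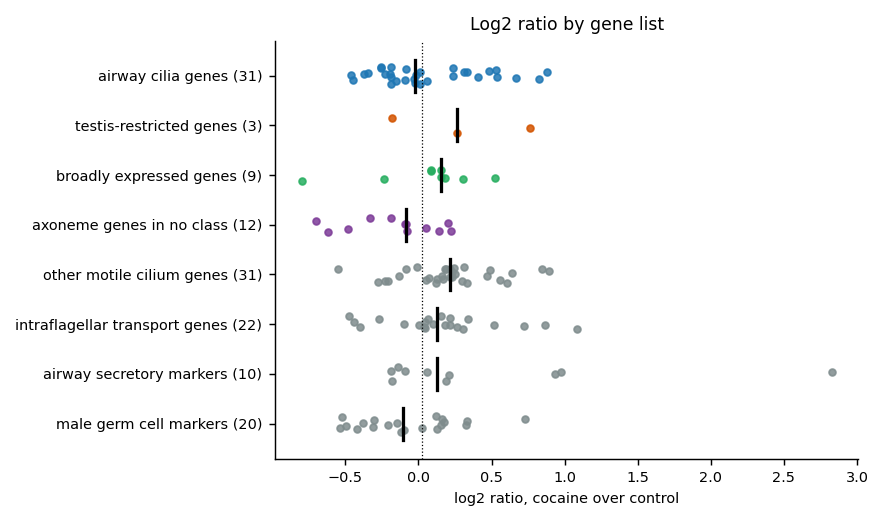
Log2 ratio of cocaine over control (horizontal axis) for each gene of 8 lists (rows, with the number of measured genes in brackets); points are genes, short vertical lines are medians and the dotted line is the median of all named genes, 0.02. The airway cilia genes of the axoneme lie around their median of -0.02, and the other motile cilium genes around 0.21.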

How the data were processed

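Each array's RNA was extracted with TRIzol, labelled with biotin and hybridized to a Clariom S rat array. The authors deposited normalized intensity values, linear in scale, with 1 value for each probe set of an array. MAS5 is named for them in the submitters' processing notes and the Transcriptome Analysis Console in the study's methods. A version, build or annotation release was not given in the sources used here and none was assumed. The platform annotation gave 1 gene symbol to 15049 of 24834 probe sets, several to 0 and none to 9785, controls included. The symbols of all 55 axoneme genes were unchanged in the RefSeq table of GRCr8. RefSeq lists 97 genes under the same name rule, and the other 42 had no named probe set here.

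Values were log2-transformed without a pseudocount, and the 10 genes with several probe sets took their mean. The log2 ratio was the cocaine minus the control value. There were no detection flags, so percentile 95 of genes with Olr, Or or Vom symbols served as the background limit. Having 2 arrays limits the precision. The genes and lists were chosen with earlier results of these data known. Values of both arrays were given for Foxj1, Ccdc40, every testis-restricted gene, every gene at least 1.5-fold different and, in each role, up to 4 genes of highest intensity and any under the limit on both arrays. Others were added to complete a role. Motif patterns were searched in RefSeq promoter windows. The alternatives were array centring, quantile normalization, a loess fit (span 0.3), the highest probe set, current symbols, a floor at the limit, a filter at the limit, limits at the 90th and 99th percentile and a fold of 1.3. The scalings and the recovery of genes at least 1.5-fold different were tested on simulated data. The background limit, the list counts and the motif search were not. Python 3.11.15 with numpy 2.4.6, pandas 2.3.3, statsmodels 0.14.6 and matplotlib 3.10.9 was used.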

Additional observations from a re-analysis of the deposited data

How the results depend on the processing

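Under centring, quantile normalization and loess, all 9 summary results of the axoneme genes stayed within tolerance. The tolerance, used here in place of replicate spread, was 0.1 for a median log2 ratio and 1.5 times for a count. The limit was set anew on the rescaled arrays, so under centring and quantile normalization the counts above it could hardly change. The highest probe set and current symbols could change no value of these genes. Each of the 55 has 1 probe set and an unchanged symbol. The count of genes at least 1.5-fold lower was 2 after quantile normalization and after loess, in place of 3. Of the 7 genes at least 1.5-fold different, 0 changed direction. With values under the background limit raised to it, the median log2 ratio of the testis-restricted genes was 0, down from 0.27, since all 3 lie under the limit, and the genes at least 1.5-fold lower numbered 1 in place of 3. With only genes above the limit on both arrays, 2 genes were at least 1.5-fold higher in place of 4, and 1 lower. This filter left no testis-restricted gene, so it gave no median for them. At a fold of 1.3, 9 genes were higher and 6 lower. The share of all named genes at that fold was not counted, so these 2 counts cannot be set against a background. The 90th and 99th percentile limits left the counts of genes above the limit within 1.5 times their values, with 45 and 31 genes above them on both arrays in place of 42. No paired analysis was possible because each condition has 1 array. Levels near the limit, such as those of Dnaaf2, Cfap210 and Cfap95, depend on where it is set.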

Other observations

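Genes of intraflagellar transport, which serve motile and primary cilia alike, were all above the background limit on both arrays (22 of 22). Of all named genes 64.9% were. At deposited values 17 of the 22 transport genes were higher on the cocaine array (77.3%), and 5 were lower. Of all named genes 52.4% were higher, and of the 9763 above the limit on both arrays 5609 were. The median log2 ratio of the transport genes was 0.13, against 0.02 over all named genes. After quantile normalization there were 13 higher, 9 lower and a median of 0.05. Wdr35, a subunit of the complex that returns cargo from the ciliary tip, stood at 376.4 (cocaine) and 177.3 (control). Ttc21b, of the same complex, stood at 625.8 and 344.2. Other members lay in the opposite direction, with Traf3ip1 at 432.6 and 602.3 and Ift46 at 6366 and 8395. These genes were picked for their values.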
